A study of Homo sapiens with 6 samples.

Results

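The genes described here are 32 enzymes, carriers and regulators of cholesterol and fatty acid synthesis that respond to the sterol regulatory element-binding proteins (SREBPs). They were picked by name from the pathway, and all 32 were found among the 19402 genes of the deposited count table. By role, 19 belong to the sterol branch, 9 to the fatty acid branch and 4 are the SREBPs and their regulators. Expression was measured by poly(A)-selected RNA sequencing in the human cell line CFPAC1, derived from pancreatic ductal adenocarcinoma, in 3 control libraries (WT) and 3 libraries labelled IRF1-KO. Both groups were pools of clonal lines obtained by dilution after lentiviral infection, and both grew in IMDM with fetal bovine serum. WT pools received the lentiCRISPRv2-type plasmid without a named guide, and IRF1-KO pools received it with wild-type Cas9 and a guide RNA directed at IRF1, an interferon-induced transcription factor. The comparison asked whether metabolic genes differ between pools labelled IRF1-KO and control pools of this cell line, here the sterol branch beside the fatty acid branch. Each library mixes the clones of a single cell line, so a change in the make-up of a pool and a change of RNA in each cell cannot be told apart.

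SREBPs are made as membrane proteins of the endoplasmic reticulum and are held there with their escort SCAP by INSIG proteins when sterols are plentiful. When sterols are short, SCAP carries them to the Golgi, where proteases release the part that enters the nucleus and switches on its target genes. SREBP2, encoded by SREBF2, acts mainly on cholesterol synthesis and uptake, and SREBP1c, made from SREBF1, mainly on fatty acid synthesis. INSIG1 and the SREBF genes are themselves targets, and the transcripts of the pathway tend to move together.

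Promoter stretches are shown because SREBPs are known to act on such promoters together with the CCAAT-binding factor NF-Y. The stretches came from RefSeq windows of the GRCh38.p14 build that run from 250 bases before to 50 bases after a transcription start, and 28 of the 32 genes had such a window, 38 windows in all. ACAT2, FDFT1, SQLE and FASN were not matched. Each stretch reads 5′ to 3′ on the strand of its gene, and capitals mark CCAAT and CACNCCAC, a form of the sterol regulatory element, on either strand (ATTGG is CCAAT read from the other strand). HMGCS1 spans chr5:43313493-43313582 on the minus strand, and IDI1 spans chr10:1048954-1049033 on the minus strand. MSMO1 spans chr4:165327469-165327654 and INSIG1 spans chr7:155297655-155297727, both on the plus strand. SREBF2 spans chr22:41832958-41833018 and SCD spans chr10:100346989-100347141, also both on the plus strand.
HMGCS1: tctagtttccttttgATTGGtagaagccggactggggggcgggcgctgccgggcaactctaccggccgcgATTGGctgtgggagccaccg
IDI1: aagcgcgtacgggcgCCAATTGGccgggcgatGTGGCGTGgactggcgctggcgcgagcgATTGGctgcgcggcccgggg
MSMO1: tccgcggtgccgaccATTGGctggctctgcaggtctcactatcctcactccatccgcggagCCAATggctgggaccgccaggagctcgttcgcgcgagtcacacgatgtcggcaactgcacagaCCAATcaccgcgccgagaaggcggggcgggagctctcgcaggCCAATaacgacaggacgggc
INSIG1: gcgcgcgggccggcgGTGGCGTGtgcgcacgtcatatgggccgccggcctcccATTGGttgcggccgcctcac
SREBF2: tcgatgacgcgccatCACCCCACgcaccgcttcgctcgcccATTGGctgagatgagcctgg
SCD: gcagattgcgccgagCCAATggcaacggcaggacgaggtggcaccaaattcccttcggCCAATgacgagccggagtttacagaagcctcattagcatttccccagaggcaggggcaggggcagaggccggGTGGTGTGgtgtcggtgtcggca
The MSMO1 stretch held 4 CCAAT matches and no CACNCCAC, and the IDI1 stretch held 3 CCAAT matches and 1 CACNCCAC. The first CCAAT and ATTGG of IDI1 overlap. HMGCS1 and SCD had 2 CCAAT matches each, and INSIG1 and SREBF2 had 1 each. SCD, INSIG1 and SREBF2 also held 1 CACNCCAC each.

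CCAAT on either strand was present in 25 of the 38 windows (65.8%), against 34.6% of all 35116 windows of the same length. By gene, 21 of the 28 had it, and PMVK, CYP51A1, ELOVL6, FADS1, ME1, SCAP and SREBF1 did not. CACNCCAC was present in 7 windows (18.4%; 5.87% of all windows), from the 6 genes IDI1, SC5D, SREBF2, INSIG1, ACACA and SCD. The windows of SC5D overlap and hold the same CACNCCAC and CCAAT, and those of ACLY the same CCAAT matches. Counts of windows therefore include repeats of a site. The E-box CACGTG was present in 5 windows (13.2%; 7.26% of all windows), from LSS, SC5D, SCAP and INSIG1. A pair of GAAA repeats with 2 bases between them, a core form of the interferon regulatory factor site, was in none of the 38 windows and in 3.57% of all windows. These are matches of letters in 1 window around a start site and say nothing of binding.

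The libraries held 16413682 to 28258075 counts, and 13388 genes were counted deeply enough to be tested. All 9 ductal epithelial markers, KRT19 and EPCAM among them, were over 1 CPM (counts scaled to the size and composition of the library) in every library. Of the other markers, PTPRC of leukocytes was at most 0.122 CPM, DCN of fibroblasts at most 0.0698 CPM and CPA1 of acinar cells at 0, and the 3 endothelial markers summed to at most 3.08 CPM. The exceptions were CD68 of the leukocyte list, at 126 to 184 CPM, and COL1A1 of the fibroblast list, at 25.9 to 74.5 CPM. IRF1 itself was not lower in the IRF1-KO libraries, at 117, 123 and 132 CPM against 87.3, 91.3 and 82.6 CPM in WT. Its log2 fold change was 0.51 ± 0.10 (SE), not past the threshold in edgeR (adjusted p = 0.135) and past it in DESeq2 (adjusted p = 0.00105). Cas9 cuts can leave a damaged transcript in place, so these counts are no check of the knockout, and every direction below is that of the library labels.

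None of the 32 genes differed between the groups past the threshold. All 32 were counted deeply enough to be tested, and edgeR's quasi-likelihood test called 0 of them at an adjusted p under 0.05 in either direction, with adjusted p between 0.281 and 0.997. Over all genes tested the same test called 0.127%, with 0.0149% higher and 0.112% lower in IRF1-KO. At an unadjusted p under 0.05, 2 were higher in IRF1-KO, FASN and SREBF1, and 1 was lower, CYP51A1. The background at that level was 5.39% of genes higher and 3.75% lower. DESeq2 called 1 member, FASN, as higher and none as lower, where it called 1.52% and 0.964% of all genes. Every IRF1-KO library lay above every WT library for 2 members, FASN and SCAP (8.03% of all genes), and below for 0 (6.75% of all genes). The median log2 fold change (IRF1-KO minus WT) of the 32 was −0.05, against −0.02 over all genes tested, and 19 of the 32 values were negative, against 53.3% of all genes. That number was 10 when IRF1-KO replicate 1 was left out, 13 when WT replicate 1 was, 24 when IRF1-KO replicate 2 was and 15 with an offset for GC content. For 26 of the 32 genes the 95% interval lay inside a 2-fold change in either direction. The other 6, whose intervals reached further, were MVD, FDFT1, HSD17B7, SREBF1, FASN and SCD.

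**Figure D1:**
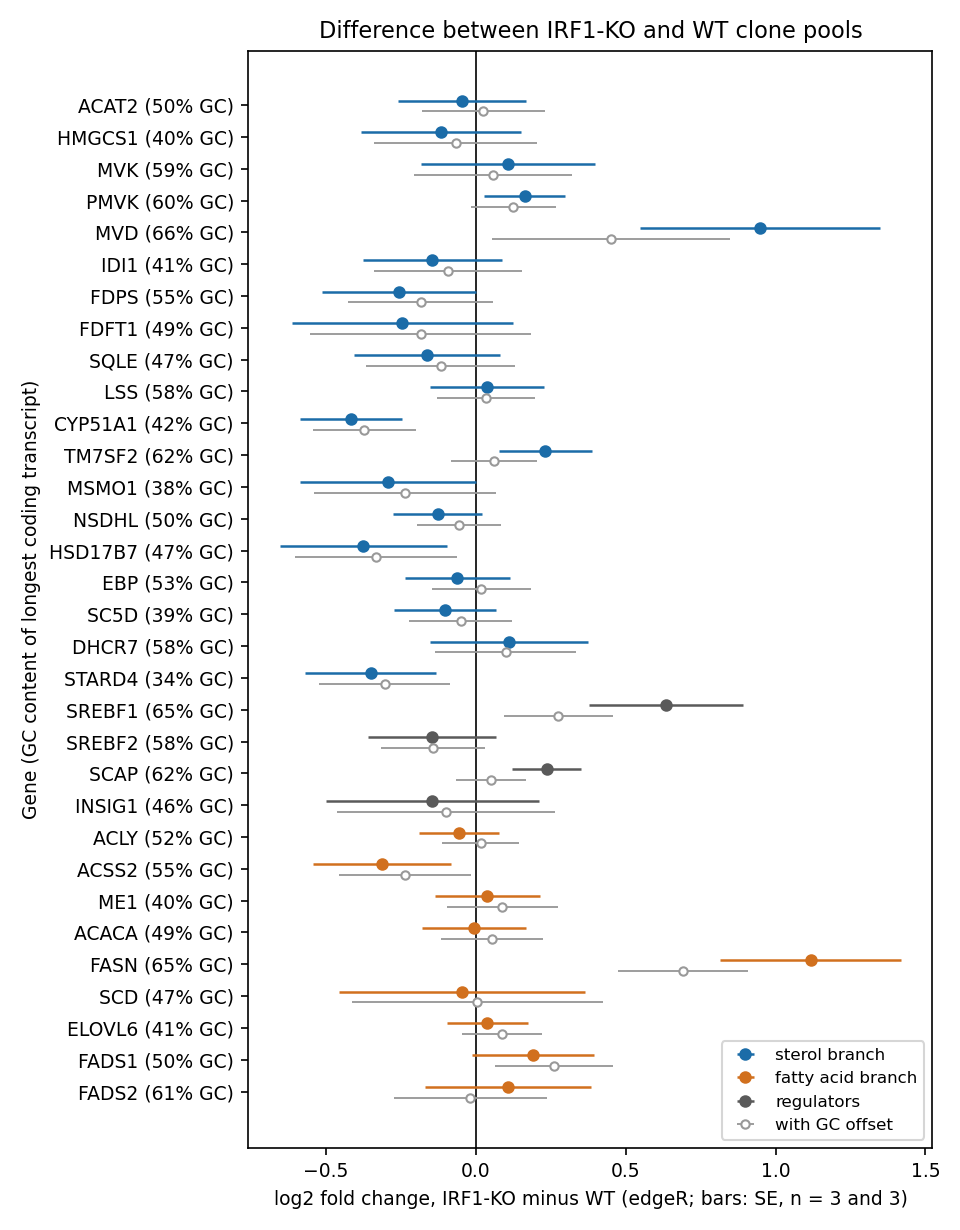
Fitted log2 fold change of each of the 32 genes, IRF1-KO minus WT, with its standard error (3 libraries a group), filled for the counts as deposited and open with an offset for GC content. Gene labels carry the GC content of the longest coding transcript. FASN, MVD and SREBF1 lie farthest to the right and CYP51A1 farthest to the left, and the open points of the first 3 lie closer to 0.

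Set branch beside branch, the sterol genes lay slightly below 0 and the fatty acid genes close to 0. In the sterol branch 13 of 19 values were negative, with a median of −0.12 on the log2 scale. Leaving out either WT replicate 1 or IRF1-KO replicate 1 made that 8 of 19 and turned the median to 0.02, and leaving out WT replicate 3 made it 16 of 19 with a median of −0.23. In the fatty acid branch 4 of 9 were negative, with a median of 0.04. That was 1 of 9 with a median of 0.15 when IRF1-KO replicate 1 was left out, and 6 of 9 with a median of −0.12 when IRF1-KO replicate 2 was. It was 5 of 9 with a median of −0.03 when WT replicate 3 was left out. The difference of the medians was −0.15, which was described and not tested. It was −0.20 when WT replicate 3 was left out, and −0.02 when either WT replicate 1 or IRF1-KO replicate 2 was.

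The first steps of the sterol branch, from acetoacetyl-CoA to farnesyl diphosphate, had 7 genes with a median of −0.05 on the log2 scale, 4 of them negative. HMGCS1, which makes the precursor of mevalonate, had 254, 261 and 142 CPM in replicates 1 to 3 of WT, and 156, 198 and 252 CPM in those of IRF1-KO. Its groups overlapped fully, and the log2 fold change was −0.12 ± 0.27. FDPS, the farnesyl diphosphate synthase, had 262, 243 and 129 CPM in the WT pools and 152, 191 and 188 CPM in the IRF1-KO pools, with a log2 fold change of −0.26 ± 0.26. In both genes WT replicate 3 was the lowest WT library and IRF1-KO replicate 1 the lowest IRF1-KO library. IDI1, the isopentenyl diphosphate isomerase, had 304, 283 and 176 CPM in the WT pools against 197, 285 and 208 CPM in the IRF1-KO pools (log2 fold change −0.14 ± 0.23). ACAT2, the cytosolic thiolase at the head of the path, had 76.4, 55.0 and 42.8 CPM in the WT pools and 48.0, 58.0 and 62.6 CPM in the IRF1-KO pools (log2 fold change −0.05 ± 0.21). IDI1 had the same order of libraries at its low end, and so did ACAT2.

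The 3 enzymes that phosphorylate and decarboxylate mevalonate had positive values. MVK, the mevalonate kinase, had 18.2, 19.9 and 9.85 CPM in the WT pools and 13.6, 21.6 and 16.3 CPM in the IRF1-KO pools (log2 fold change 0.11 ± 0.29). The MVK value was −0.12 when WT replicate 3 was left out and −0.10 when IRF1-KO replicate 2 was. PMVK, the phosphomevalonate kinase, had 21.7, 26.7 and 27.6 CPM in the WT pools and 29.1, 26.3 and 29.6 CPM in the IRF1-KO pools (0.16 ± 0.13 on the log2 scale). PMVK was the steadier of the pair, with WT replicate 1, not 3, as its lowest WT library. MVD, the decarboxylase, lies at GRCh38 chromosome 16, 88651935 to 88663161, and had 28.5, 31.6 and 12.9 CPM in the WT pools and 28.8, 64.9 and 46.7 CPM in the IRF1-KO pools. Its mean was 24.3 ± 10.0 CPM in the WT pools and 46.8 ± 18.0 CPM in the IRF1-KO pools (± SD over 3 libraries). The groups overlapped because IRF1-KO replicate 1 lay below WT replicate 2. The log2 fold change of MVD, the largest of the sterol branch, was 0.95 ± 0.40, with an unadjusted edgeR p of 0.0506 and an adjusted p of 0.548. It was 0.66 when WT replicate 3 was left out and 0.64 when IRF1-KO replicate 2 was.

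From squalene to cholesterol the values had a median of −0.13 over 11 genes, 8 of them negative and none past the threshold. Of all genes tested 53.3% were negative. With an offset for GC content the median of the 11 was −0.06 and 7 were negative. FDFT1, the squalene synthase, had 191, 191 and 72.6 CPM in the WT pools and 99.3, 154 and 130 CPM in the IRF1-KO pools (log2 fold change −0.25 ± 0.37). SQLE, the squalene epoxidase, had 107, 109 and 63.1 CPM in the WT pools and 64.3, 99.7 and 85.2 CPM in the IRF1-KO pools (−0.16 ± 0.24). MSMO1, a sterol C4-demethylation enzyme, had 191, 247 and 115 CPM in the WT pools and 111, 181 and 159 CPM in the IRF1-KO pools (−0.29 ± 0.29). In all 3 genes WT replicates 1 and 2 stood above every other library and WT replicate 3 stood with or below the IRF1-KO libraries.

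CYP51A1, the lanosterol 14-alpha demethylase, had the smallest p of the negative values. The gene (GRCh38 chromosome 7, minus strand, 92112153 to 92134803) had 170, 160 and 113 CPM in the WT pools and 99.3, 111 and 122 CPM in the IRF1-KO pools. The means were 148 ± 30.6 and 111 ± 11.4 CPM (± SD over 3 libraries), and IRF1-KO replicate 3 lay above WT replicate 3. Its log2 fold change was −0.42 ± 0.17, with a 95% interval of −0.81 to −0.02 and an adjusted edgeR p of 0.521. With each library left out in turn the value ran from −0.55 without WT replicate 3 to −0.28 without WT replicate 1.

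The remaining steps to cholesterol gave values on both sides of 0. HSD17B7, which reduces the 3-keto group, had 13.1, 14.7 and 7.88 CPM in the WT pools and 7.38, 8.52 and 11.5 CPM in the IRF1-KO pools (log2 fold change −0.38 ± 0.28). DHCR7, the last reductase of its arm, had 136, 135 and 82.7 CPM in the WT pools and 92.2, 166 and 123 CPM in the IRF1-KO pools (0.11 ± 0.26). LSS, the lanosterol synthase, had 99.7, 107 and 75.6 CPM in the WT pools and 76.3, 117 and 96.7 CPM in the IRF1-KO pools (0.04 ± 0.19). Each of these 3 genes was again at its lowest in WT replicate 3 and IRF1-KO replicate 1 within its group. EBP, the sterol isomerase, had 134, 94.3 and 88.0 CPM in the WT pools and 89.4, 105 and 108 CPM in the IRF1-KO pools (−0.06 ± 0.17). SC5D, the sterol C5-desaturase, had 82.0, 92.8 and 62.3 CPM in the WT pools and 63.2, 76.9 and 80.6 CPM in the IRF1-KO pools (−0.10 ± 0.17). NSDHL, a second C4-demethylation enzyme, lay in a narrow range, between 28.5 and 39.9 CPM in the 6 libraries (−0.13 ± 0.15). TM7SF2, a sterol C14-reductase, had 14.7, 15.9 and 19.9 CPM in the WT pools and 18.9, 20.7 and 19.8 CPM in the IRF1-KO pools (0.23 ± 0.15). WT replicate 3 was its highest WT library, as for PMVK, while IRF1-KO replicate 1 was its lowest IRF1-KO library. STARD4, which carries cholesterol between membranes, had 69.8, 82.0 and 46.2 CPM in the WT pools and 43.3, 57.8 and 53.9 CPM in the IRF1-KO pools (log2 fold change −0.35 ± 0.22).

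Among the regulators, SREBF1 and SCAP were above WT on average and SREBF2 and INSIG1 below, none past the threshold. SREBF1 (GRCh38 chromosome 17, minus strand, 17810399 to 17837002) had 42.1, 69.9 and 55.6 CPM in the WT pools and 75.7, 117 and 67.1 CPM in the IRF1-KO pools. IRF1-KO replicate 3 lay below WT replicate 2, so the groups overlapped by that pair. The log2 fold change was 0.63 ± 0.26, with an unadjusted edgeR p of 0.0409 and an adjusted p of 0.521, and it was 0.35 without IRF1-KO replicate 2. The counts cover the whole gene and do not separate the SREBP1a and SREBP1c transcripts. SREBF2 had 128, 166 and 114 CPM in the WT pools and 108, 159 and 101 CPM in the IRF1-KO pools (−0.15 ± 0.21), with replicate 2 highest in either group.

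SCAP, the escort protein, was with FASN the only member whose groups did not overlap. It had 28.7, 33.8 and 29.2 CPM in the WT pools and 35.2, 36.1 and 36.6 CPM in the IRF1-KO pools. All 3 IRF1-KO values lay close together and above the highest WT value. The log2 fold change was 0.24 ± 0.11, with an unadjusted edgeR p of 0.0753. With an offset for GC content it was 0.05 and the groups overlapped, at 33.9, 33.6 and 30.5 CPM against 35.6, 30.7 and 35.1 CPM in IRF1-KO. INSIG1, the sterol-regulated retention protein and a sensitive SREBP target, had 172, 171 and 95.4 CPM in the WT pools and 73.5, 174 and 149 CPM in the IRF1-KO pools. Its log2 fold change was −0.15 ± 0.36. The spread of INSIG1 lay within the groups: IRF1-KO replicate 1 was below every other library, and WT replicate 3 was next.

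FASN, the multienzyme that builds palmitate, had the largest difference of the 32 genes and was above WT in every IRF1-KO library. The gene (ENSG00000169710.9, GRCh38 chromosome 17, minus strand, 82078338 to 82098294) had 104, 168 and 116 CPM in the WT pools and 187, 399 and 257 CPM in the IRF1-KO pools. The lowest IRF1-KO library, replicate 1, stood just above the highest WT library, replicate 2. The means were 129 ± 34.0 CPM in the WT pools and 281 ± 108 CPM in the IRF1-KO pools (± SD over 3 libraries), a 2.17-fold higher level with a log2 fold change of 1.12 ± 0.30 and a 95% interval of 0.41 to 1.83. Its unadjusted edgeR p was 0.00729 and its adjusted p 0.281, so the call was not made, while DESeq2 gave an adjusted p of 0.00673. Over the 15 alternative settings the adjusted p ran from 0.00673 to 0.566. The log2 value was 0.78 without IRF1-KO replicate 2, the library with the highest FASN level, and 1.36 without IRF1-KO replicate 1.

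**Figure D2:**
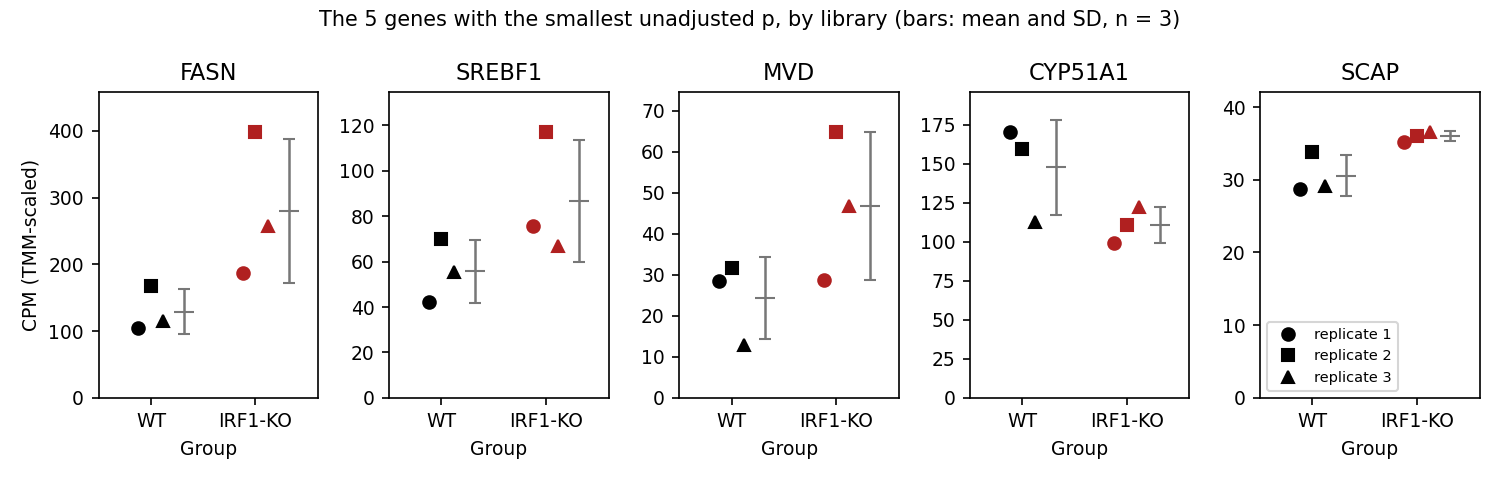
CPM (scaled by TMM factors) of the 5 genes with the smallest unadjusted p, 1 symbol a library, with the mean and SD of each group of 3. FASN and SCAP have no overlap between groups, and SREBF1, MVD and CYP51A1 each overlap by at least 1 library.

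The other fatty acid genes did not share the size of the FASN difference. ACACA, the acetyl-CoA carboxylase that feeds FASN, had 91.2, 102 and 70.4 CPM in the WT pools and 73.2, 101 and 88.6 CPM in the IRF1-KO pools, a log2 difference of −0.01 ± 0.17. ACLY, which makes cytosolic acetyl-CoA from citrate, had 449, 415 and 441 CPM in the WT pools and 385, 494 and 375 CPM in the IRF1-KO pools (−0.06 ± 0.13). ACSS2, which makes acetyl-CoA from acetate, had 34.7, 35.7 and 23.7 CPM in the WT pools and 18.4, 26.3 and 30.8 CPM in the IRF1-KO pools (−0.31 ± 0.23). The intervals of ACACA and ACLY lay inside a 1.5-fold change in either direction, from −0.41 to 0.40 for ACACA and from −0.37 to 0.25 for ACLY. ME1, the NADPH-making malic enzyme, had 36.4, 29.3 and 36.1 CPM in the WT pools and 37.2, 40.3 and 27.1 CPM in the IRF1-KO pools (0.04 ± 0.18).

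SCD, the stearoyl-CoA desaturase, varied most widely among pools. It had 1062, 1521 and 554 CPM in the WT pools and 613, 1344 and 1079 CPM in the IRF1-KO pools, with group means of 1046 ± 484 and 1012 ± 370 CPM (± SD over 3 libraries). The log2 fold change was −0.05 ± 0.41 and its 95% interval, −1.02 to 0.93, reached about 2-fold either way. ELOVL6, the elongase that follows FASN, was far steadier, with 72.6, 90.6 and 79.7 CPM in the WT pools and 72.1, 84.7 and 92.5 CPM in the IRF1-KO pools (0.04 ± 0.14). The front-end desaturase FADS1 had 311, 232 and 212 CPM in the WT pools and 231, 357 and 273 CPM in the IRF1-KO pools (0.19 ± 0.20). FADS2, its neighbour, had 323, 287 and 187 CPM in the WT pools and 217, 395 and 247 CPM in the IRF1-KO pools (0.11 ± 0.28). Both FADS genes were highest in IRF1-KO replicate 2, and reads from the exons that the neighbours share on opposite strands cannot be assigned without the strand setting.

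Per length of gene, SCD was the most abundant of the 32, at a mean of 196 RPKM (reads scaled to exon length and library size, over the 6 libraries). ACLY followed at 81.9 RPKM, then MSMO1 at 58.6, EBP at 58.3, IDI1 at 55.7 and FDPS at 52.3 RPKM. These 4 do not differ beyond the spread of their pools, since the SD within WT was 23.2 RPKM for MSMO1 and 14.0 RPKM for EBP. INSIG1 stood at 38.2 RPKM and CYP51A1 at 36.6 RPKM. On this scale FASN had 13.9 ± 3.65 RPKM in WT and 30.1 ± 11.6 RPKM in IRF1-KO (± SD over 3 libraries). MVK and HSD17B7 were lowest, at 2.55 and 2.20 RPKM, and of the regulators SREBF2 had 17.1, SREBF1 8.87 and SCAP 5.29 RPKM.

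The clearest pattern in these genes lay between pools of the same label. Within WT, replicate 3 was the lowest library for 17 of the 19 sterol genes (89.5%), against 32.4% of all genes tested. Within IRF1-KO, replicate 1 was the lowest for 18 of the 19 (94.7%), against 32.3% of all genes. The same 17 sterol genes had both, all but PMVK and TM7SF2. In the fatty acid branch 5 of 9 genes had both (ACSS2, ACACA, SCD, FADS1 and FADS2), and of the regulators only INSIG1 did. Of the 32 genes that made 23 (71.9%), against 12.5% of all genes, and none was highest in both of these libraries, against 13.4% of all genes.

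**Figure D3:**
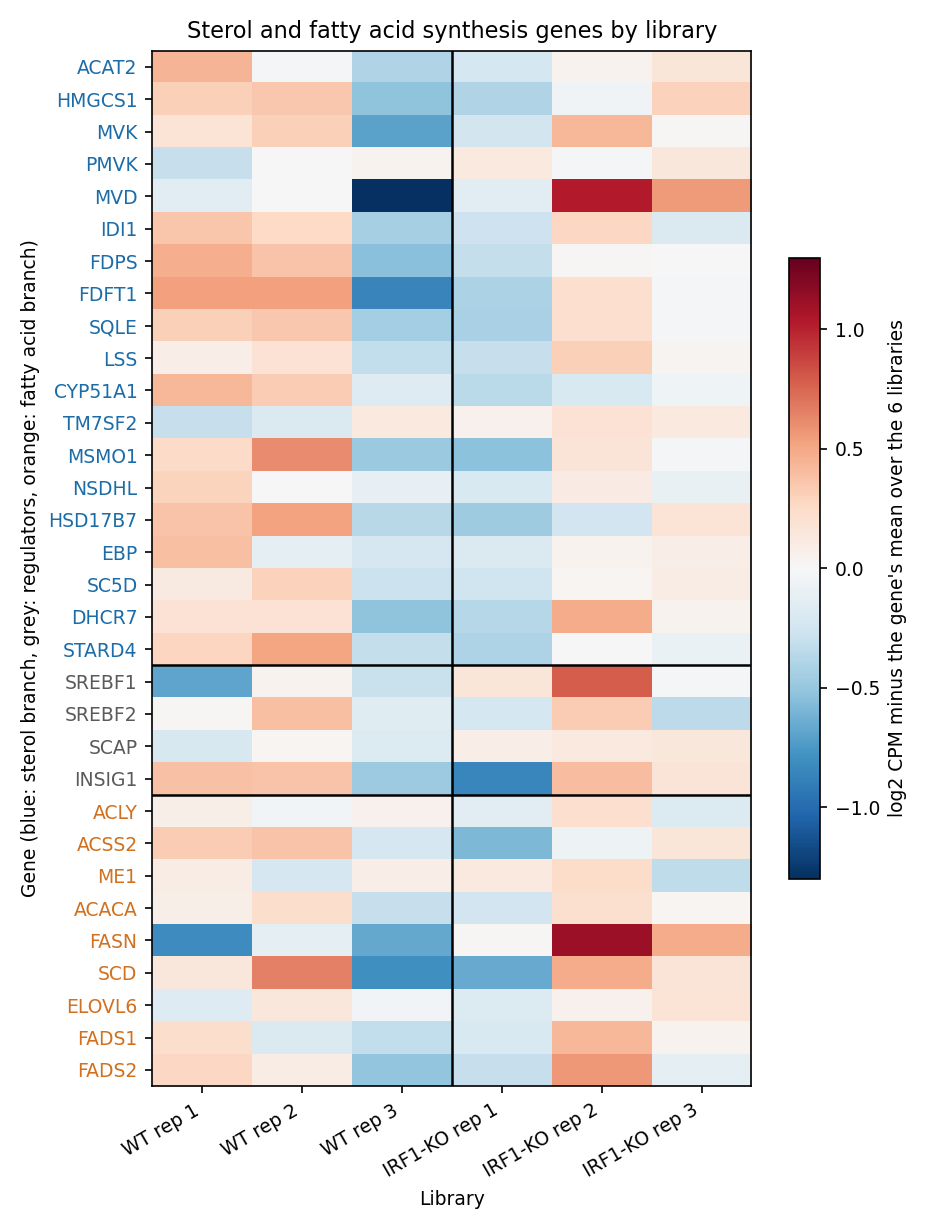
Log2 CPM of each of the 32 genes in each library, minus that gene's mean over the 6 libraries, with WT on the left of the vertical line. WT replicate 3 and IRF1-KO replicate 1 are blue through most of the sterol branch, and FASN, MVD and SREBF1 are darkest red in IRF1-KO replicate 2.

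Inside a group, the SD of log2 CPM had a median of 0.37 over the sterol genes and 0.30 over the fatty acid genes, against 0.21 over all genes. In size, the low pools stood clear of the other pools of their label. The median sterol gene lay 0.24 and 0.25 above its WT mean in WT replicates 1 and 2 and at −0.48 in WT replicate 3 (log2 CPM). In IRF1-KO it lay at −0.24 in replicate 1, 0.17 in replicate 2 and 0.07 in replicate 3. The fatty acid branch had medians of 0.11, 0.17 and −0.23 in WT and −0.29, 0.25 and −0.05 in IRF1-KO. The corresponding medians over all genes tested lay between −0.01 and 0.01. With an offset for GC content the sterol counts were 17 of 19 in WT replicate 3 and 17 of 19 in IRF1-KO replicate 1. These tallies were made after the values had been seen, and no test was run on them.

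**Figure D4:**
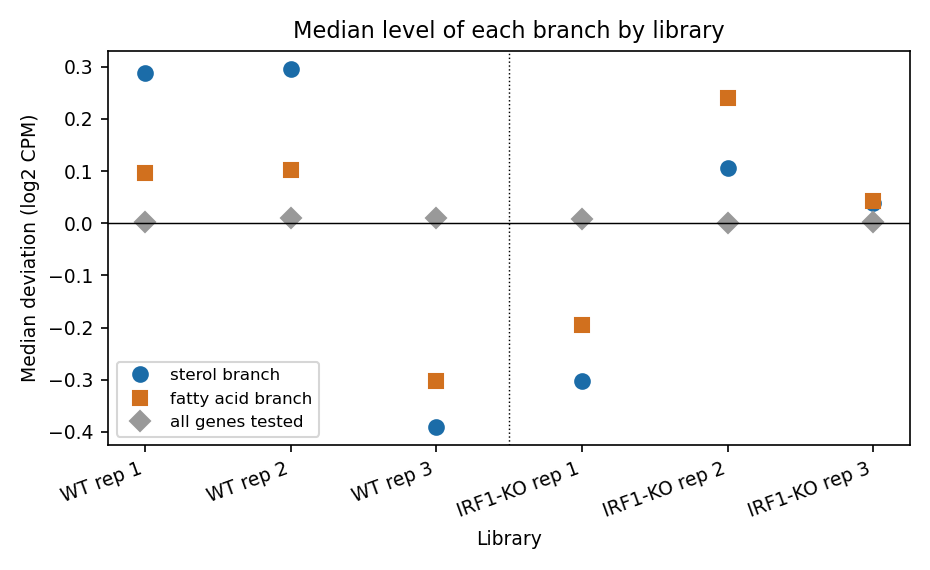
Median over each branch of the log2 CPM deviation from the gene's mean over all 6 libraries, 1 symbol a branch and library, with all tested genes in grey. Both branches are lowest in WT replicate 3 (−0.39 sterol, −0.30 fatty acid) and IRF1-KO replicate 1 (−0.30 and −0.20), and the fatty acid branch is highest in IRF1-KO replicate 2 (0.24).

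Most ductal epithelial markers were low in the same libraries. All 9 were lowest in replicate 3 within WT, and 7 of the 9 in replicate 1 within IRF1-KO, the exceptions being CDH1 and SOX9. Their summed level was 7028, 7851 and 4573 CPM in replicates 1 to 3 of WT and 5208, 7274 and 6205 CPM in those of IRF1-KO, so it too was lowest in WT replicate 3 and IRF1-KO replicate 1. Each of the 9 markers was over 1 CPM in every library. Their part in the pattern of the sterol genes was not tested. IRF1-KO replicate 1 had the fewest counts of all libraries, 16413682, whereas WT replicate 3 had the most of its group, 21003927.

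GC content of the transcripts moved with the fold changes. Over the 32 genes the log2 fold change correlated with GC content at Pearson's r = 0.68 and Spearman's rho = 0.67, across genes of the same 6 libraries, which are not independent replicates. Over 13383 tested genes r was 0.20 and rho 0.22. The 6 members with at least 60% GC were FASN (65.3%), MVD (65.6%), SREBF1 (64.7%), SCAP (62.3%), TM7SF2 (62.0%) and FADS2 (60.7%), and all 6 had positive values with a median of 0.44. Of all genes at that GC content, 1529 of 1998 were positive, with a median of 0.24. Of the 8 members under 45% GC, 6 were negative, with a median of −0.13.

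With an offset that removed the GC trend of each library, the positive values of most GC-rich members moved toward 0. The median of the 6 GC-rich members was then 0.17, and 5 of them were positive. FASN had a log2 fold change of 0.69 ± 0.22, or 1.61-fold, with an unadjusted edgeR p of 0.0138 and an adjusted p of 0.498. Its GC-adjusted values were 144, 176 and 123 CPM in the WT pools and 182, 310 and 222 CPM in the IRF1-KO pools, still with no overlap between groups. MVD came to 0.45, SREBF1 to 0.27, TM7SF2 to 0.06 and SCAP to 0.05 on the log2 scale, while CYP51A1, at 41.5% GC, came to −0.37. With the offset 11 of 19 sterol genes and 2 of 9 fatty acid genes were negative, with medians of −0.06 and 0.05. The offset fit called 0 of the 32 genes and 0.112% of all genes. At an unadjusted p under 0.05 the offset fit had 1 member higher, FASN, and 0 lower, against 4.12% and 3.53% of all genes. Over the 32 genes r was still 0.59 with the offset, against −0.01 over all genes.

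**Figure D5:**
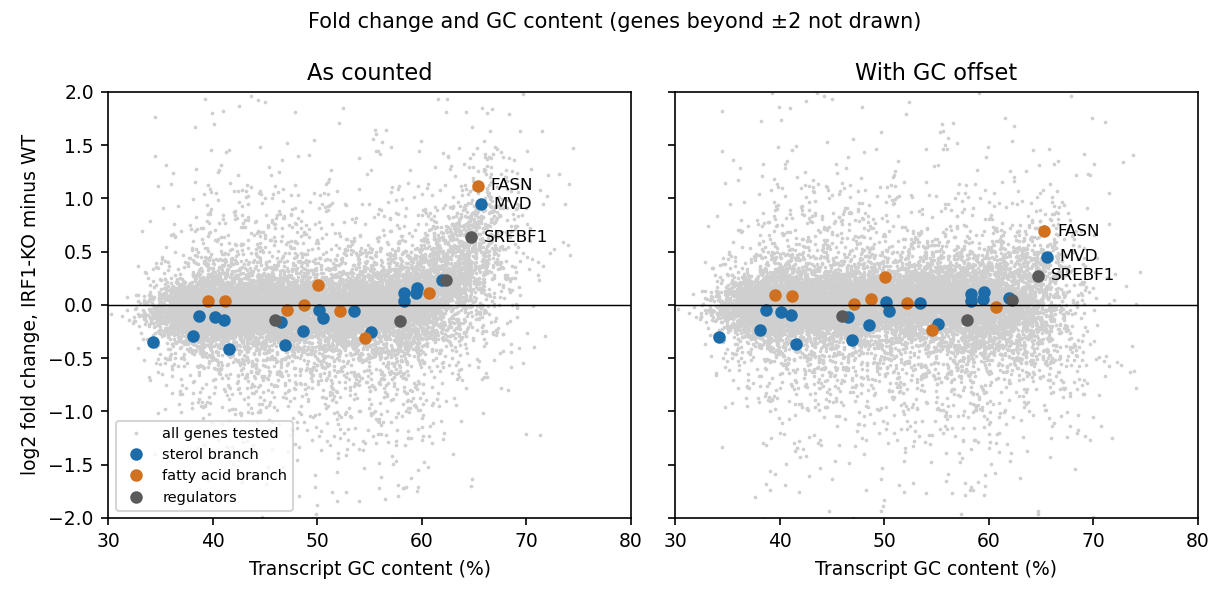
Log2 fold change (IRF1-KO minus WT) against transcript GC content, as counted (left) and with the GC offset (right), with all tested genes in grey and the 32 genes coloured by role. Grey points bend upward above 60% GC on the left and lie about 0 on the right, where FASN is at 0.69, MVD at 0.45 and SREBF1 at 0.27.

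Of 90 further genes around the pathway, 88 were tested and edgeR called none of them. Their values were split evenly, 44 positive and 44 negative, with 6 higher and 4 lower at an unadjusted p under 0.05, where 5.39% and 3.75% of all genes were. Among 19 genes of SREBP processing, sterol sensing and co-factors the median was 0.01. USF1, a factor that binds lipogenic promoters, had 48.3, 54.9 and 44.6 CPM in the WT pools and 33.2, 37.1 and 32.1 CPM in the IRF1-KO pools, which gave −0.53 ± 0.13 on the log2 scale (adjusted p 0.205 by edgeR, 0.0275 by DESeq2). Every IRF1-KO library of USF1 lay below every WT library. INSIG2, the second INSIG protein, came to −0.40 ± 0.17, and MBTPS1, the site-1 protease that cuts SREBPs, to 0.22 ± 0.11.

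The liver X receptors (LXR) sense oxysterols and drive sterol export. A list of LXR, oxysterol and sterol transport genes had a median of 0.10 over 15 tested genes of 16. At an unadjusted edgeR p under 0.05, 2 were higher and 0 lower (5.39% and 3.75% of all genes). GRAMD1A, a sterol transfer protein, came to 0.43 ± 0.16, SCARB1, the HDL receptor, to 0.43 ± 0.17 and NR1H2, which encodes LXR-beta, to 0.65 ± 0.30. With the GC offset GRAMD1A came to 0.21, SCARB1 to 0.46 and NR1H2 to 0.42. CH25H, which makes 25-hydroxycholesterol, was not tested, at 0.0610 to 1.09 CPM. ABCA1, the cholesterol exporter and LXR target, had 188, 198 and 384 CPM in the WT pools and 322, 273 and 188 CPM in the IRF1-KO pools. It was named after its values were seen, because its highest libraries, WT replicate 3 and IRF1-KO replicate 1, were those in which the sterol genes were lowest. SOAT1, GRAMD1B and CYP27A1 were also highest in both, 4 of the 15 genes in all, against 13.4% of all genes. In the other direction, 3 of the 15 (NR1H3, OSBP and GRAMD1C) were lowest in both, against 12.5% of all genes. ABCG1, MYLIP and LPCAT3 of the same list did not have the order of ABCA1. MYLIP was lowest of WT in replicate 3 (13.7 CPM), and LPCAT3 lowest of IRF1-KO in replicate 1 (13.2 CPM). ABCG1 had 6.77 CPM in IRF1-KO replicate 1, below the 7.30 CPM of IRF1-KO replicate 2.

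The non-sterol isoprenoid branches, which use farnesyl diphosphate for prenylation, dolichol and coenzyme Q, had a median of −0.05 over 12 genes. FNTA, the shared alpha subunit of the prenyltransferases, had the smallest p of the list, at −0.36 ± 0.11, beside −0.16 ± 0.13 for FNTB and −0.18 ± 0.15 for ICMT. With the GC offset they were −0.32, −0.09 and −0.12. Of these 12 genes, 1 was lowest in both low pools (12.5% of all genes) and 6 were highest in both (13.4% of all genes). Of 30 tested genes of elongation, desaturation, activation and lipid assembly, the median was −0.06. AGPAT2, which makes phosphatidic acid, came to 0.99 ± 0.24 and ACSL5, an acyl-CoA synthetase, to −0.71 ± 0.20, with DESeq2 adjusted p of 0.0136 and 0.0342. With the GC offset AGPAT2, at 65.9% GC, came to 0.57 and ACSL5 to −0.67. MID1IP1, which activates acetyl-CoA carboxylase, came to 0.70 ± 0.24, and THRSP was not tested. For citrate export, NADPH and carbohydrate response the median over 12 genes was −0.01, with SLC25A10, the mitochondrial dicarboxylate carrier, at 0.67 ± 0.15 (DESeq2 adjusted p = 0.0156), TKT of the pentose phosphate pathway at 0.23 ± 0.10 and PGD at −0.22 ± 0.14. With the GC offset SLC25A10, at 65.4% GC, came to 0.25 and its groups overlapped, and PGD came to −0.15. Over all 88 genes, 17.0% were lowest in both low pools and 22.7% highest in both, against 12.5% and 13.4% of all genes.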

How the data were processed

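RNA from 3 WT and 3 IRF1-KO clone pools of CFPAC1 was sequenced after poly(A) selection. The authors deposited whole-number counts for each gene, made on GRCh38 (hg38) with featureCounts 0.6.1, beside edgeR 3.2.2, per the submitters' processing notes. The aligner, annotation and strand setting were not given in the sources used here. Other cell lines and interferon treatments of the series were not analysed here. The 32 genes and the wider lists were chosen with earlier results of these data known.

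Counts were fitted in R 4.3.3 with edgeR 4.0.16 (filterByExpr, TMM, robust quasi-likelihood F test, two-sided, Benjamini-Hochberg over 13388 genes, threshold 0.05). Standard errors and 95% intervals follow from the F statistic. Log2 CPM used a prior count of 2, and RPKM the exon length in the table. Symbols came from a name table for 19342 identifiers and from GENCODE 29 for 56, and 4 had none. GC content is that of the longest coding transcript in GENCODE 29, and its offset was a natural spline with 5 degrees of freedom per library. DESeq2 1.42.0, limma-voom (limma 3.58.1), other scaling factors and filters, a replicate block and leaving out each library were alternatives. Named genes were IRF1, all members and, of each wider list, up to 3 with the smallest p where none was called.

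Counts were simulated at the depths of these libraries (13435 genes), with the same dispersion for every gene and changes only in well-counted genes. There edgeR recovered 6% of genes changed 1.5-fold, 58% at 2-fold and 100% at 4-fold, with 4 false calls. DESeq2 recovered 14%, 62% and 100%, with 13. These rates do not cover members with a wide spread, such as MVD and SCD (SD of log2 CPM within groups 0.65 and 0.67). The median of that SD was 0.35 over the 32 genes, so the rates may be too high for other members too. The simulation held 50 changed genes at each fold, where edgeR called 17 genes in these data. More true changes make the adjusted threshold easier to pass, which may also raise the rates. Within groups, chi-square per degree of freedom between libraries was 27.1 to 57.2, so no 2 libraries agreed within sampling noise. The labels do not say whether pools were grown separately, so p-values cover only the spread among the 6 libraries, which may be technical. Exons of ACAT2, MVK, SREBF1 and FADS1 overlap a gene on the opposite strand and those of TM7SF2 and FADS2 a gene on the same strand, and HSD17B7 and FDPS have near-identical pseudogene copies, which makes their values uncertain.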

Additional observations from a re-analysis of the deposited data

How the results depend on the processing

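In edgeR and limma-voom no alternative called any of the 32 genes. DESeq2 called 1 higher (FASN, log2 fold change 1.12, adjusted p = 0.00673). It called 1 gene of the SREBP processing list (USF1, −0.52, adjusted p = 0.0275), 2 of the lipid assembly list (AGPAT2 and ACSL5) and 1 of the citrate and NADPH list (SLC25A10). Of the 88 wider genes tested it thus called 2 higher and 2 lower, where it called 1.52% and 0.964% of all genes. It also called IRF1 (0.52, adjusted p = 0.00105), and it called 332 genes in all against 17 in edgeR. With 1 library left out, edgeR called from 3 genes (without IRF1-KO replicate 1 or 3) to 91 (without WT replicate 3), with no member among them. With 1 library left out, ACAT2 ran from −0.20 (without WT replicate 3) to 0.22 (without WT replicate 1), EBP from −0.15 to 0.17 (without the same libraries) and FADS2 from −0.19 (without IRF1-KO replicate 2) to 0.29 (without IRF1-KO replicate 1), so that each took the sign opposite to its value with all libraries. Of the 32 genes, 18 changed sign in at least 1 of 15 alternatives, none with a log2 fold change over 0.163 in size. Other sign changes, of under 1 SE, were not counted as reversals, that of SCD among them (0.32 without WT replicate 2). By the SE of the fit with all libraries, the opposite values of EBP and FADS2 were also under 1 SE. The sterol branch median ran from −0.23 (without WT replicate 3) to 0.02 (without WT replicate 1 or IRF1-KO replicate 1), and from −0.11 to −0.05 under the other alternatives. The fatty acid median ran from −0.12 (without IRF1-KO replicate 2) to 0.15 (without IRF1-KO replicate 1), and from 0.02 to 0.08 otherwise. The labels do not say whether same-numbered libraries were handled together. Deviations of same-numbered libraries from their group means correlated at −0.02, 0.25 and 0.06 across genes. The largest value of all pairs was that of WT replicate 2 with IRF1-KO replicate 2 (0.253). WT replicate 3 correlated best with IRF1-KO replicate 1 (0.245), so not every library correlated best with its own number. Deviations within a group are not independent of each other, so these values cannot decide whether the libraries were paired. With the replicate number as a block, FASN had a log2 fold change of 1.08 (adjusted p = 0.0645), edgeR called 31 genes and no member, and with the block and the GC offset together it called 11.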
